A study of Homo sapiens with 2 samples.

Results

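IGF2BP3 binding sites were examined on the 7 genes of the E2F transcription factor family listed here (E2F1, E2F2, E2F3, E2F4, E2F5, E2F7 and E2F8) and the 3 genes of the RB family (RB1, RBL1 and RBL2). A site was taken as any LACE-seq peak that overlapped the annotated span of one of these 10 genes by at least 1 bp. This gave 32 of the 41941 deposited peaks, 23 of 21142 in replicate 1 and 9 of 20799 in replicate 2. LACE-seq maps where a protein contacts RNA, through UV crosslinking of the cells, immunoprecipitation, trimming of the RNA with MNase and linear amplification of cDNA ends. Both samples were UV-crosslinked OE-19 cells, a human adenocarcinoma line of the gastric cardia, precipitated with an antibody against IGF2BP3. They form a single group of 2 replicates, nothing says whether they came from separate cultures, and the spread between them may be technical. No control library was analysed here, so strong binding and an abundant RNA cannot be told apart.

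E2F proteins bind the promoters of genes needed for DNA replication and cell division. E2F1, E2F2 and E2F3 act mainly as activators, E2F4 and E2F5 mainly repress together with RB family proteins, and E2F7 and E2F8 are atypical repressors that bind DNA without a DP partner. The RB family proteins, encoded by RB1, RBL1 (p107) and RBL2 (p130), hold E2Fs inactive until cyclin-dependent kinases phosphorylate them late in G1. IGF2BP3 binds mRNA and is treated by the study as a reader of N6-methyladenosine (m6A). By qPCR, the study found E2F1 and E2F3 mRNA reduced after IGF2BP3 knockdown in OE-19 cells. It also names E2F1 among the m6A-modified targets of IGF2BP3. Its high-confidence targets were genes found by both LACE-seq and RNA immunoprecipitation with sequencing, and the latter was not analysed here.

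Of the 10 genes, 9 had a peak in replicate 1 and 7 in replicate 2, against 41.0% and 42.2% of all 20046 protein-coding genes. All 7 genes with a peak in replicate 2 also had one in replicate 1, where 6961 of the 8450 protein-coding genes with a replicate 2 peak did. Thus 7 of the 10 genes had a peak in both lists, against 34.7% of all protein-coding genes. Peaks of both replicates overlapped each other on 4 genes, E2F1, E2F4, E2F8 and RBL2, against 30.5% of protein-coding genes. E2F4 had 2 such sites and the other genes 1 each, which gave 5 shared sites. E2F3 was the single member with no peak in either list, while 48.5% of protein-coding genes had a peak in at least 1 of them. A missing peak does not show that the RNA is not bound, and these shares were not adjusted for the level or the length of the RNA.

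**Figure D1:**
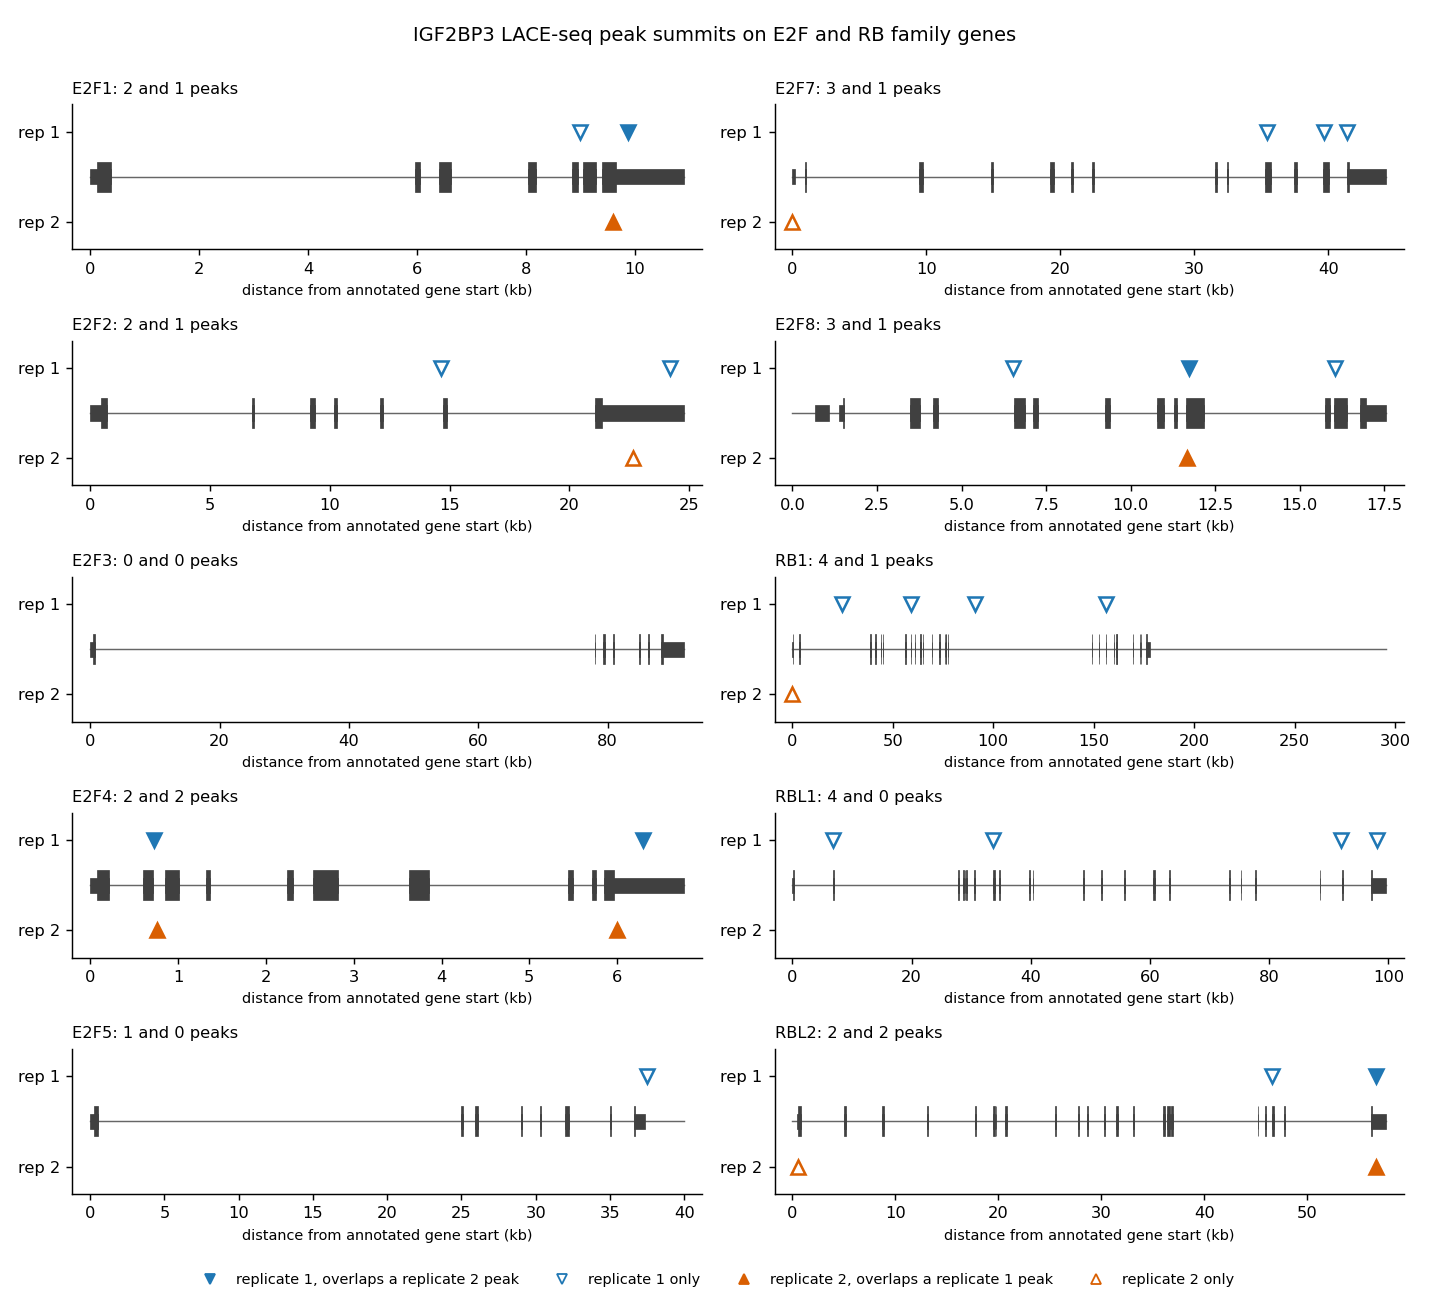
Peak summits along the 10 genes, with the distance from the annotated gene start in kb on the x axis. Boxes are exons of the canonical transcript (tall, coding; low, untranslated), triangles above the line are replicate 1 and those below are replicate 2, and filled triangles mark peaks that overlap a peak of the other replicate. Shared sites lie near the 3′ end of E2F1, E2F4 and RBL2 and inside E2F4 and E2F8, whereas RB1, RBL1, E2F2, E2F5 and E2F7 have open triangles alone.

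The 5 shared sites were searched on the gene strand for GGAC, the core of the m6A consensus, because the study relates IGF2BP3 binding to it. Within the bases covered by both replicates, E2F1 held 5 copies of GGAC, E2F8 held 2, each E2F4 site held 1 and RBL2 held 0. The stretches that hold these copies are given first, since the values of the shared sites refer back to them. All are reference sequence of hg38 written 5′ to 3′ on the gene strand, with GGAC in capitals. In the RBL2 stretch, which has no GGAC, the capitals mark both copies of AAAAA, the comparison motif of the search. The overlap at E2F8 also held 2 copies of AAAAA, which are not marked.
E2F1, coding sequence, pair of copies, chr20:33676920-33676949, minus strand: gggctcccgtGGACgaGGACcgcctgtccc
E2F1, coding sequence, chr20:33676863-33676892, minus strand: agcatgtgcgggaGGACttctccggcctcc
E2F1, coding sequence near its end, chr20:33676740-33676769, minus strand: actgtgactttggGGACctcacccccctgg
E2F1, 3′ UTR, chr20:33676703-33676732, minus strand: acagggcttggagGGACcagggtttccaga
E2F4, intron 2, chr16:67192947-67192976, plus strand: ggcaggggccatgGGACccagagttctcag
E2F4, 3′ UTR, chr16:67198307-67198336, plus strand: gagcaggggaacaGGACtcagcccccatca
E2F8, coding sequence, both copies, chr11:19229919-19229948, minus strand: GGACcctgcaaaccagtagcccctctGGAC
RBL2, 3′ UTR, chr16:53490696-53490725, plus strand: cctcatAAAAAgcaaaacAAAAAttaggta
In windows of 301 nt centred on the middle of the overlap, GGAC was present at 4 of the 5 shared sites. Of all 13083 overlapping pairs on protein-coding genes, 66.6% held GGAC in a window of this length. The match is a description of these letters and not evidence of methylation.

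E2F1, the activator that drives entry into S phase, is located at chr20:33675477-33686385 (minus strand) and has 1 annotated transcript with 7 exons. The shared site covered the junction of its coding sequence and 3′ UTR. The replicate 1 peak ran from 33676406 to 33677066, with a fold enrichment of 3.99 and 25 reads piled up at the summit, a number recovered from the fold and the p-value. The fold is the pileup plus 1 over the local background plus 1, so it understates the plain ratio, most of all where the local background is low. The lists do not name the library behind this background, so it is not shown to be independent of the reads around the peak. The replicate 2 peak ran from 33676499 to 33676998, with a fold enrichment of 5.67 and 24 reads (4.83 ± 1.18, SD, n = 2). All 500 bp of the replicate 2 peak lay inside the replicate 1 peak, yet the summits were 285 bp apart. The mean and SD above therefore join folds taken at different positions. The summit of replicate 1 was 233 nt downstream of the last coding base, and that of replicate 2 was 52 nt upstream of it. The 4 coding copies of GGAC and the 3′ UTR copy printed above lay at positions -437 to -217 relative to the replicate 1 summit, with negative values upstream. Relative to the replicate 2 summit the last 2 of them lay at 31 and 68 nt. Among all peaks of its list the E2F1 site stood low by fold enrichment, at percentile 6.13 in replicate 1 and 21.3 in replicate 2, while its pileups were close to the median of 22 reads of both lists. The local background recovered for it was 5.51 reads in replicate 1 and 3.41 in replicate 2, against medians of 4.66 reads for 3′ UTR summits of replicate 1 and 2.56 reads for coding summits of replicate 2.

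Replicate 1 had a further E2F1 peak from 33677151 to 33677479, with a fold enrichment of 4.49 and 29 reads. Its summit was in intron 5, which is 95 nt long, at 30 nt after the 5′ splice site and 66 nt before the 3′ splice site. The peak covered the whole intron, and 234 of its 329 bases were coding, in the exons on either side. The nearest replicate 2 peak was 153 bp away.

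E2F4, which mainly represses, is located at chr16:67192155-67198918 (plus strand). It was the single gene of the family with 2 shared sites, and all 4 of its peaks recurred. At its beginning, the peaks ran from 67192806 to 67193148 in replicate 1 and spanned 67192847 to 67193142 in replicate 2. Their fold enrichments were 8.10 and 6.60 (7.35 ± 1.06, SD, n = 2), with 23 and 19 reads at summits 25 bp apart. Both peaks covered the whole of the 138-nt intron 2 of the canonical transcript together with 205 and 158 coding bases of the exons on either side. The intron is an exon of a non-coding E2F4 transcript, so the summits were classed as non-coding exon. With the canonical transcript alone they were intronic.

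The second E2F4 site lay in the last exon. The peaks ran from 67198319 to 67198612 in replicate 1 and spanned 67197958 to 67198609 in replicate 2, and their fold enrichments were 5.18 and 7.76 (6.47 ± 1.82, SD, n = 2) with 18 and 38 reads. The overlap of 291 bp was 99.0% of the replicate 1 peak and 44.6% of the wider replicate 2 peak. The summits were 304 bp apart, so the mean and SD above join folds taken at different positions. The replicate 2 summit was coding in a transcript other than the canonical one. On the canonical transcript both were in the 3′ UTR, 333 and 29 nt after the last coding base.

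E2F8, an atypical repressor, is located at chr11:19224063-19241620 (minus strand). Its shared site was in exon 10, with the summits at -1164 and -1195 nt relative to the last coding base. The replicate 1 peak, spanning 19229710 to 19230055, had a fold enrichment of 6.89 and 40 reads. The replicate 2 peak, spanning 19229751 to 19230156, had a fold enrichment of 10.6 and 27 reads (8.73 ± 2.61, SD, n = 2). The summits were 31 bp apart. Both GGAC copies printed above are also TGGAC, the longer form that the study names, and their GGAC began at -38 and -12 nt relative to the replicate 1 summit and at -7 and 19 nt relative to that of replicate 2. In replicate 2 this was the member peak with the largest fold enrichment, at percentile 85.3 of its list.

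RBL2, which encodes the RB family protein p130 that predominates in resting cells, is located at chr16:53433977-53491648 (plus strand). Its shared site was in the 3′ UTR. The replicate 1 peak, spanning 53490539 to 53490900, had a fold enrichment of 8.95 and 25 reads, and the replicate 2 peak, spanning 53490529 to 53490833, had 7.61 and 14 reads (8.28 ± 0.946, SD, n = 2). The summits were 21 bp apart, at 339 and 360 nt after the last coding base. The overlap had a GC content of 42.4%, the lowest of the 5 shared sites, which otherwise ranged from 52.8% to 63.2%.

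**Figure D2:**
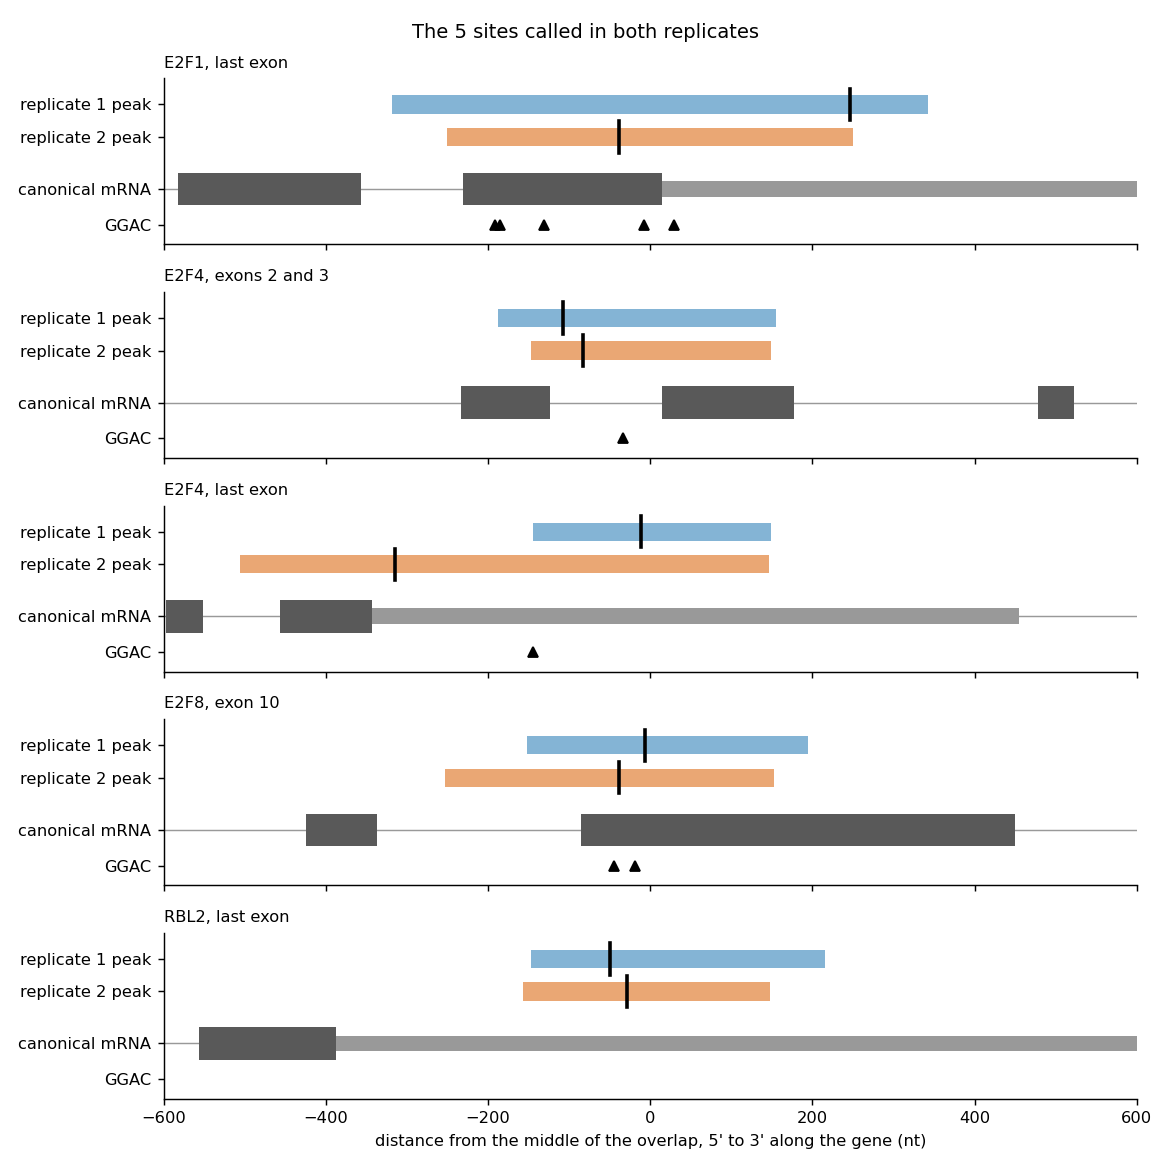
The 5 sites called in both replicates, with the distance from the middle of the overlap in nt on the x axis, 5′ to 3′ along the gene. Coloured bars are the peaks, black ticks their summits, dark boxes coding and light boxes untranslated bases of the canonical transcript, and triangles the first base of each GGAC within the overlap. The summits lie within 31 bp of each other in the first E2F4 site, E2F8 and RBL2, and 285 and 304 bp apart in E2F1 and the last exon of E2F4.

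The other activator E2Fs had no shared site. E2F2, at chr1:23506438-23531233 (minus strand), had 2 peaks in replicate 1 and 1 in replicate 2. In its 3′ UTR, the replicate 1 peak ran from 23506900 to 23507192, with a fold enrichment of 3.61 and 17 reads. The replicate 2 peak there spanned 23508462 to 23508795, with a fold enrichment of 4.42 and 12 reads. They were 1270 bp apart and therefore did not recur. They were also the weakest member peaks of each list by fold enrichment, at percentiles 3.66 and 7.91. The remaining replicate 1 peak, from 23516360 to 23516653 with a fold enrichment of 6.69 and 20 reads, had its summit 83 nt before a 3′ splice site and held 168 coding bases. E2F3, at chr6:20401879-20493714 (plus strand), had 0 peaks in both lists. Its canonical mRNA has 5036 nt, with a 3′ UTR of 3287 nt, and that of E2F2 has 5196 nt and 3445 nt. The lists give no RNA level, and the reason why E2F3 had no peak was not tested.

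E2F5, a repressive E2F at chr8:85177154-85217158 (plus strand), had 1 peak, in replicate 1, from 85214600 to 85214895. It had a fold enrichment of 7.41 and 19 reads. The summit was in a 3′ UTR of E2F5 that lies beyond the end of the canonical transcript, and also in an exon of RBIS, which runs the other way. Since the lists give no strand, the gene of origin cannot be told apart.

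E2F7, which can pair with E2F8, is located at chr12:77021248-77065569 (minus strand). Replicate 1 had 3 peaks there, all with the summit in coding sequence. They ran from 77029990 to 77030341 in exon 10, from 77025651 to 77026159 in exon 12 and from 77023893 to 77024356 in exon 13. Their fold enrichments were 6.27, 7.27 and 5.78, and their pileups were 24, 44 and 29 reads. The peak with 44 reads was the deepest of all 32. None of them recurred. Of all 6378 replicate 1 pairs of a peak and a protein-coding gene with the summit in coding sequence, 67.7% overlapped a replicate 2 peak. Replicate 2 had instead 1 peak where the gene begins, from 77065404 to 77065700, with a fold enrichment of 7.69 and 9 reads. Its summit was 1 nt upstream of the annotated start, and 166 of its bases were 5′ UTR.

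E2F8 also had 2 peaks that replicate 2 lacked. One ran from 19225340 to 19225835 in exon 12, with a fold enrichment of 6.90 and 35 reads. The other ran from 19234950 to 19235311, with a fold enrichment of 7.23 and 31 reads, and its summit was 46 nt before a 3′ splice site. An intron of CSRP3-AS1, a lncRNA gene on the opposite strand, lies over the summits of all E2F8 peaks.

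RB1, the retinoblastoma tumour suppressor, is located at chr13:48303744-48599436 (plus strand), and its span of 295693 bp was the longest of the family. It had 4 peaks in replicate 1, a number that 8.63% of protein-coding genes reached or passed, and 1 in replicate 2, and none of them overlapped. All 4 summits of replicate 1 were intronic, with pileups of 9, 8, 10 and 9 reads in transcript order and fold enrichments of 6.42, 6.71, 7.64 and 6.95. The second and the fourth, from 48362598 to 48362892 and from 48459477 to 48459769, lay 70 and 61 nt before a 3′ splice site and reached 78 and 82 bases into coding sequence. The first, from 48328367 to 48328659, was inside intron 2 at an exon of PCNPP5, a processed pseudogene on the opposite strand. The third, from 48394524 to 48394817, was in intron 17 within the span of LPAR6, a receptor gene nested in RB1 on the opposite strand. Neither reached an exon of RB1, and without a strand their gene of origin cannot be told apart. The replicate 2 peak ran from 48303551 to 48303879 over the start of the gene, with a fold enrichment of 7.56 and 9 reads. Its summit was in the 5′ UTR, 55 nt after the annotated start, and 193 of its 329 bases lay upstream of the gene.

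RBL1, which encodes p107, is located at chr20:36996349-37095997 (minus strand). In replicate 1 it had 4 peaks, in replicate 2 it had 0. The strongest was in the 3′ UTR, from 36997817 to 36998199, with a fold enrichment of 9.25 and 34 reads. It was the member peak with the largest fold enrichment in replicate 1, at percentile 81.0, and it did not recur. The remaining 3 had intronic summits 75, 29 and 19 nt before a 3′ splice site, with fold enrichments of 7.20, 7.01 and 6.49 and pileups of 10, 13 and 11 reads. They reached 98, 98 and 44 bases into coding exons.

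RBL2 had 1 further peak in each replicate. The replicate 1 peak spanned 53480413 to 53480712 and had a fold of 7.77 and 12 reads, with the summit 38 nt before a 3′ splice site, at an exon of the unnamed gene ENSG00000279344 on the opposite strand. Without a strand, the gene of origin of this peak cannot be told apart. The replicate 2 peak spanned 53434360 to 53434725 and had a fold of 10.5 and 15 reads. It covered all 86 nt of the canonical 5′ UTR and 169 coding bases, and its window of 101 nt had a GC content of 77.2%, the highest among the member peaks.

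**Figure D3:**
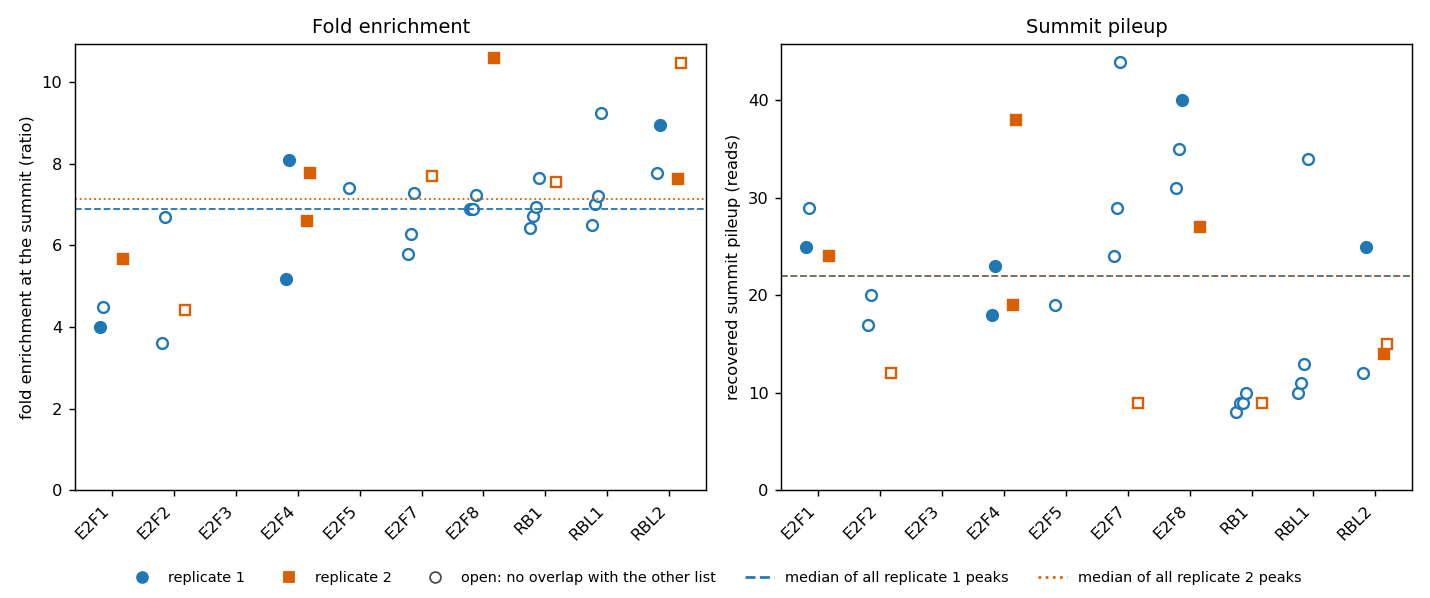
Fold enrichment (left, ratio) and recovered summit pileup (right, reads) of all 32 peaks by gene. Circles are replicate 1 and squares replicate 2, filled symbols overlap the other list, and the lines are the medians of all peaks of each list (6.89 and 7.13 for fold enrichment, 22 reads in both for pileup). The RB1 peaks have 8 to 10 reads although their fold enrichments are near the medians.

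Taken by family, the E2F genes held 13 peaks in replicate 1 and 6 in replicate 2, of which 4 recurred in each. The RB family genes held 10 and 3, of which 1 recurred in each. Over all peaks on protein-coding genes, 60.7% recurred in replicate 1 and 61.1% in replicate 2. Of the E2F peaks of replicate 1, 5 had the summit in coding sequence, 4 in a 3′ UTR, 1 in a non-coding exon and 3 in an intron. Of the RB family peaks of replicate 1, 8 were intronic and 2 were in a 3′ UTR. Over all replicate 1 pairs of a peak and a protein-coding gene, 30.5% of summits were in coding sequence and 23.6% in a 3′ UTR. Non-coding exons held 3.59% and introns 32.9%. The median pileup was 25 reads on E2F genes and 10.5 on RB family genes in replicate 1, and 21.5 and 14 in replicate 2. It was 22 reads over all peaks of each list. By class, the replicate 1 medians over all genes were 19 reads for intronic, 26 for coding and 32 for 3′ UTR summits. The part of region class in the family difference was not tested. The spans of the RB family genes are longer, at 57672 to 295693 bp against 6764 to 91836 bp for the E2F genes, and the part of gene length in this difference was not tested.

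The 2 replicates differed in how many sites they gave. Of the 9 members with any peak, 7 had more peaks in replicate 1, 2 had as many in both and 0 had more in replicate 2. Of the 9717 protein-coding genes with any peak, 34.1% had more in replicate 1 and 36.9% had more in replicate 2. In replicate 1, 5 of the 23 member peaks overlapped a replicate 2 peak (21.7%, Wilson 95% interval 9.66 to 41.9), against 60.7% of all peaks on protein-coding genes. In replicate 2, 5 of 9 overlapped a replicate 1 peak (55.6%, interval 26.7 to 81.1), against 61.1%. These intervals cover counting error only, and peaks of 1 gene share their RNA. By pileup, 0 of the 8 replicate 1 peaks with under 15 reads recurred, 4 of 10 with 15 to 29 reads and 1 of 5 with 30 reads or more. For all peaks on protein-coding genes these shares were 39.8%, 56.3% and 78.9%. In replicate 2 the member counts were 1 of 4, 3 of 4 and 1 of 1, against 39.6%, 58.4% and 79.4%.

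The replicates also differed in where the sites lay. In replicate 1, 11 of 23 summits were intronic (47.8%, interval 29.2 to 67.0), against 32.9% of all pairs of a peak and a protein-coding gene. A further 6 were in 3′ UTRs (background 23.6%), 5 in coding sequence (30.5%), 1 in a non-coding exon (3.59%) and 0 outside the span (2.42%). Of these 11 intronic summits, 9 lay 19 to 83 nt before a 3′ splice site in peaks with 44 to 234 coding bases, and 0 of the 11 recurred, which allows a share of up to 27.3%. The peak with 234 coding bases, on E2F1, covered a whole intron and parts of both flanking exons, and its summit was nearer the 5′ splice site. The windows of 101 nt around the 9 ranged from 22.8% to 65.3% in GC content, and their pileups from 8 to 31 reads. Over all genes, 50.2% of the replicate 1 pairs with an intronic summit recurred, and 67.7% of them overlapped an exon of the gene. The share of them that lay this close to a 3′ splice site was not computed, so the position is not shown to be particular to these genes. No peak of replicate 1 was narrower than 293 bp, so a peak with its summit this close to an exon can readily reach it. In replicate 2, 0 of 9 summits were intronic, against 29.8%. The Wilson interval for this share reached 29.9%, and a limit of 3 counts of the total, as used for the other counts of 0, is 33.3%. Of its summits 3 lay in coding sequence (background 30.8%), 2 in 3′ UTRs (18.9%), 2 in 5′ UTRs (12.4%), 1 in a non-coding exon (3.62%) and 1 just upstream of a gene (4.50%). The last and the 5′ UTR summits were the peaks at the starts of E2F7, RB1 and RBL2 described above, and replicate 1 had 0 member peaks with a base in a 5′ UTR. Over all genes, 5′ UTRs held 7.05% of replicate 1 summits and 12.4% of those of replicate 2, so the whole lists differed in the same direction. By class, 3 of the 6 member summits of replicate 1 in 3′ UTRs recurred (background 60.1%) and 1 of 5 in coding sequence (67.7%), and there were 0 in 5′ UTRs (79.6%). In replicate 2, 1 of 2 in 3′ UTRs recurred (74.5%), 3 of 3 in coding sequence (66.2%) and 0 of 2 in 5′ UTRs (49.3%). The shared sites in the last exons of E2F1 and E2F4 count as 3′ UTR in replicate 1 and as coding sequence in replicate 2. The class counts of the replicates therefore differ in part over the same sites.

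**Figure D4:**
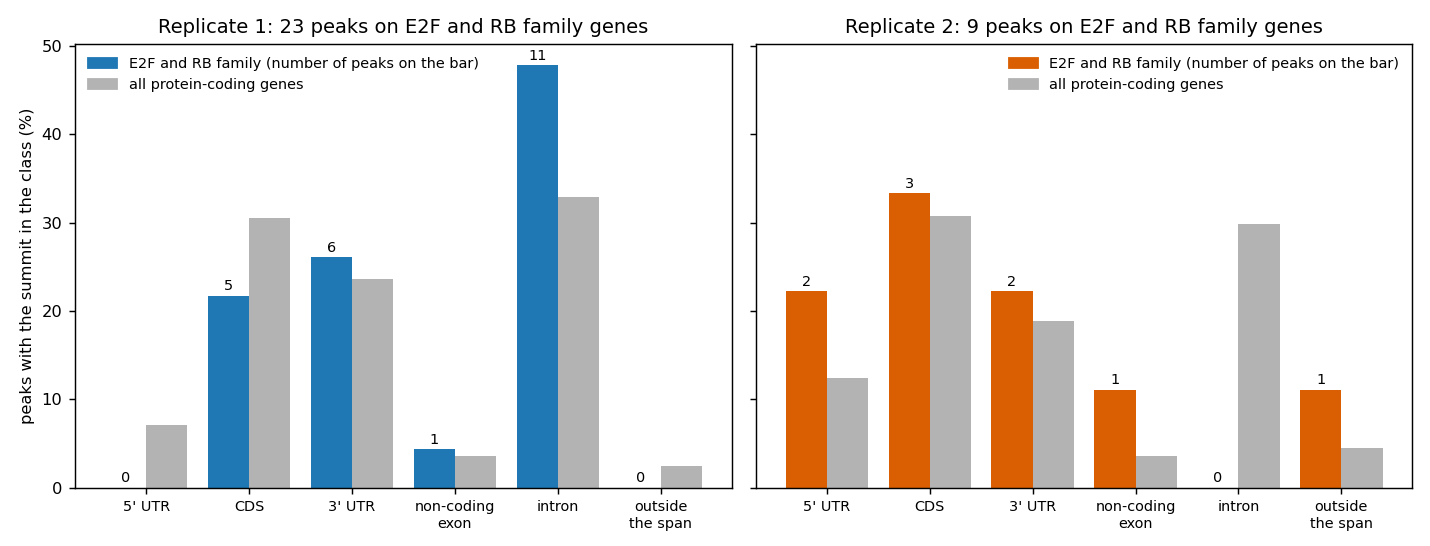
Share of peak summits by region class (y axis, percent) in replicate 1 (left) and replicate 2 (right), for the E2F and RB family genes (coloured bars, number of peaks above) and for all pairs of a peak and a protein-coding gene (grey bars). Intronic summits make up 11 of 23 member peaks in replicate 1 and 0 of 9 in replicate 2, where the grey bars are at 32.9% and 29.8%.

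Base composition moved with the replicate. In the windows of 101 nt around the summits, the median GC content of the member peaks was 50.5% in replicate 1 and 62.4% in replicate 2. Over all pairs on protein-coding genes it was 50.5% and 57.4%. The part of base composition in the positions and numbers of the sites was not tested. The same windows were searched for short motifs on the gene strand, although the lists give no strand. They include the E2F5 peak, the RB1 peaks at PCNPP5 and LPAR6 and the RBL2 peak at ENSG00000279344, whose gene of origin cannot be told apart. The replicate 2 window at the start of E2F7, which holds GGAC, lies partly upstream of the gene. GGAC was in 4 of 23 windows in replicate 1 (17.4%, interval 6.98 to 37.1) and in 6 of 9 in replicate 2 (66.7%, interval 35.4 to 87.9), against 29.2% and 32.1% of all pairs. TGGAC, every copy of which is also a GGAC, was in 3 and 1 windows (background 10.1% and 9.93%), and GGACT, likewise, in 1 and 1 (background 8.33% and 9.28%). CATT, one of the CA-containing forms known from sites of IGF2BP proteins, was in 12 of 23 and 1 of 9 windows (background 32.4% and 25.3%). ACACA was in 4 and 0 (background 10.5% and 8.34%), and 0 of 9 allows a share of up to 33.3%. AAAAA was in 6 and 1 (background 11.4% and 8.37%). With 9 windows in replicate 2, these counts describe the listed peaks and no more.

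All 32 summits had a 31-mer that occurs once on the main chromosomes of hg38, so none of them lies in a sequence with an identical copy there.

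Of the genes that work with these proteins, a list of 10 E2F dimerisation partners and subunits of the DREAM, MuvB and MYB complexes had 7 genes with a peak in replicate 1, 5 in replicate 2 and 4 with an overlapping pair, where the shares of all protein-coding genes were 41.0%, 42.2% and 30.5%. E2F6, a repressive E2F that does not bind RB proteins, had 2 peaks in each list with an overlapping pair. The DP partner gene TFDP1 had 1 peak in each list, which did not overlap, and TFDP2 had 2 and 3 with an overlapping pair. LIN54, the DNA-binding subunit of MuvB, had 7 and 3 peaks, and MYBL2, the MYB protein that joins MuvB in S phase, had 7 and 2, both with an overlapping pair. LIN9 had 2 and 0 peaks, RBBP4 had 1 and 0, and TFDP3, LIN37 and LIN52 had none. The highest fold enrichments of their peaks in replicates 1 and 2 were 15.2 and 10.1 on LIN54, 14.5 and 9.31 on MYBL2, and 8.26 and 10.7 on TFDP2.

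Of 22 textbook E2F target genes, such as the MCM helicase genes and PCNA, 18 had a peak in replicate 1, 11 in replicate 2 and 8 an overlapping pair, against the same 41.0%, 42.2% and 30.5% of protein-coding genes. Of 15 genes for the cyclins, kinases and inhibitors that set the phosphorylation of RB proteins, 10 had a peak in replicate 1 (background 41.0%), 8 in replicate 2 (42.2%) and 8 an overlapping pair (30.5%). In replicates 1 and 2, the target list held 38 and 17 peaks, the partner list 22 and 11, and the kinase list 29 and 28. MYBL2, CCNE1 and CCNE2 each stand in 2 of these lists, so the lists are not independent.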

How the data were processed

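The 2 replicates of IGF2BP3 LACE-seq in OE-19 cells were analysed, each as 1 deposited peak list, and none was left out. Peaks were called by the authors for each replicate on its own. Their methods name Bowtie on hg38 and Piranha, the submitters' processing notes name fastp, HISAT2 and MACS2, and the deposited files have the 10-column layout of MACS2, without strand. The fold enrichment (a ratio, which the values fit as summit pileup plus 1 over local background plus 1) and the p-value and q-value on the −log10 scale are the deposited values; a deposited score column, a truncated multiple of the q-value, went unused. Starts, ends and summits are deposited in bp and are given 1-based.

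Total reads are unknown. A whole summit pileup that gives both the deposited fold and p-value under a Poisson model was found for 21142 of 21142 and 20799 of 20799 peaks, within 0.001 on the −log10 scale. Its median was 22 reads in both lists. No peak passed a chromosome end of hg38.

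Summits were classed on GENCODE 44 over all transcripts of a gene in the order CDS, 3′ UTR, 5′ UTR, non-coding exon and intron. The CDS of this annotation ends before the stop codon. Motif windows reached 50 nt to each side of the summit. Background shares are over all protein-coding genes or all pairs of a peak and such a gene. No test between groups was possible with a single group. The genes were named whatever their values, and the members and lists were chosen with earlier results of these data known. Overlap, pileup recovery and classes were tested on simulated data. Python 3.11.15, pandas 2.3.3, SciPy 1.17.1 and pysam 0.24.0 were used.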

Additional observations from a re-analysis of the deposited data

How the results depend on the processing

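A total of 15 settings gave 171 values for 24 results. A share was taken as stable when it moved by less than the replicates' SD and a count when it stayed within a factor of 1.5, which held for 154 values and failed for 17. For the settings that left out 1 replicate, the outcome was fixed in advance by the peak numbers, 23 and 9. Shares over all member peaks had to fail without replicate 1 and hold without replicate 2. The mean share overlapping the other list had to hold in both. Those values say nothing about stability. The minimum of 10 reads at the summit was chosen after seeing the data. With 2 replicates that SD is wide, 34.8 percentage points for GGAC and 23.9 for overlap with the other list, so some shares counted as stable moved by over 1.5 times. GGAC went from 31.3% of summit windows to 62.5% of whole peaks, and the mean share overlapping the other list from 38.7% to 23.2% with summits within 50 bp. The 5′ UTR share of 6.25% became 3.13% by the class holding most bases and 3.70% with at least 10 reads. The share outside the span, 3.13%, became 6.25% with canonical transcripts and 0% with the summit inside the span or at least 10 reads. The number of members with an overlapping pair was 4 in all settings that could change it except summits within 50 bp of each other, where E2F1 was lost and 3 were left. The 3′ UTR share of member peaks was 25%, and 20% with a −log10 q of 5 or more, 28.1% by the class holding most bases and 29.6% with at least 10 reads. The CDS share was 25%, and 34.4% by the class holding most bases. The non-coding exon share was 6.25%, and 0% by that rule and with canonical transcripts alone, since both E2F4 summits then fall elsewhere. Left as a single replicate, the shares ranged from 21.7% to 33.3% for CDS, 22.2% to 26.1% for 3′ UTRs, 0% to 22.2% for 5′ UTRs, 4.35% to 11.1% for non-coding exons, 0% to 47.8% for introns, 0% to 11.1% outside the span, 17.4% to 66.7% for GGAC, and 21.7% to 55.6% for overlap with the other list. Of 60 values for single genes 4 moved: E2F2 fell from 3 peaks to 1 with the q-value minimum, RB1 from 5 to 3 when an exon had to be overlapped and to 1 with at least 10 reads, and E2F5 from 1 to 0 without summits in exons of other genes. E2F7 and RB1 left the set of 7 members with a peak in both lists under that minimum, which left 5. No paired analysis was possible because the samples form a single group. Peaks near the lowest pileups, such as those of RB1, rest on few reads.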
